A study of Mus musculus with 8 samples.

Results

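The 9 genes described here encode subunits of the Polycomb repressive complexes: Ezh1, Ezh2, Eed, Suz12, Jarid2, Mtf2, Phf19, Cbx2 and Cbx7. They were matched by symbol to the GENCODE annotation of the NCBIM37 mouse genome, out of 37620 genes in the count files, and all 9 were among the 16961 genes with enough counts to be tested. The 8 RNA-seq libraries came from mouse embryonic stem cells and from mesoderm progenitors made from them. R1, a mouse embryonic stem cell line, gave 7 of the libraries. Stem cells were grown without feeder cells in medium with serum. The 2i library (day 5) had CHIR99021 (3 µM), an inhibitor of GSK3, and PD0325901 (1 µM), an inhibitor of MEK. The 2iJ library (day 5) had 2i and a JAK inhibitor (2.0 µM). The 3 libraries of 2iJ+B-A (days 2, 5 and 11) had 2iJ, BMP4 (10 ng/ml) and ALK5 inhibitor II (10 µM). Cells positive for green fluorescent protein were also sorted on day 2 of 2iJ+B-A from a line that reports Cdx2 (1 library). The 2 mesoderm progenitor libraries came from embryoid bodies in another medium with BMP4, Activin A and Wnt3a. One was collected on day 3 and the other on day 4, 1 day after IWP-2, which blocks the release of Wnt proteins, so day and inhibitor cannot be told apart.

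Polycomb proteins keep developmental genes silent through marks on histones. Polycomb repressive complex 2 (PRC2) methylates lysine 27 of histone H3 through Ezh1 or Ezh2, which need Eed and Suz12 to work. PRC2 comes in alternative forms, with Polycomb-like proteins such as Mtf2 and Phf19 or with Jarid2. Canonical Polycomb repressive complex 1 (PRC1) binds the methylated histone through a chromodomain protein of the Cbx family, and in embryonic stem cells this is mainly Cbx7, while Cbx2 and others are used more in differentiating cells. Ezh2 is known as the form of dividing cells and Ezh1 as the form of resting cells.

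Gene counts per library were between 19810855 and 31453888, and between 14550 and 15950 genes had at least 10 counts. The sorted library had the fewest counts and 29.7% unmapped read pairs, against 2.17% to 3.85% in the others. The summed level of 6 pluripotency markers was 2902 to 4112 CPM (gene counts scaled to a library total of 1000000) in the unsorted stem cells. It was 1958 in the sorted cells, and 896 and 73.8 in mesoderm progenitors on days 3 and 4. Most of the day 3 sum came from Pou5f1 (701 CPM) and Nanog (153). Sox2, Zfp42, Esrrb and Klf2 had 21.6, 10.6, 6.20 and 4.04 CPM on day 3, each below every stem cell library. The summed level of 6 mesoderm markers was 9.54 to 58.7 CPM in the 6 stem cell libraries, and 1540 and 582 in mesoderm progenitors. All 6 were above 1 CPM in mesoderm progenitors, and 3 or 4 of them in each stem cell library. The brachyury gene T, which defines nascent mesoderm, stood at 547 CPM on day 3 but 6.30 on day 4. Mesp1 (181 to 6.36 CPM), Mixl1 (205 to 2.10) and Eomes (393 to 22.2) were also lower on day 4. Kdr (67.8 to 305 CPM) and Pdgfra (145 to 240) were higher. Primitive endoderm markers (3 genes) summed to 119 and 327 CPM in mesoderm progenitors, 3.62 to 113 in unsorted stem cells and 34.7 in the sorted cells. The mesoderm sums were mostly Gata4 (96.6 and 226 CPM) and Gata6 (19.9 and 98.7). Sox17, the third marker, had 2.07 and 2.10 CPM there and 24.1 CPM on day 11 of 2iJ+B-A, its highest value. The 1 neuroectoderm marker was at or under 2.39 CPM in every library. Sample codes in the labels begin with a different letter for mesoderm progenitors, sorted cells and unsorted stem cells, so a batch that followed these codes and the cell type cannot be told apart.

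**Figure D1:**
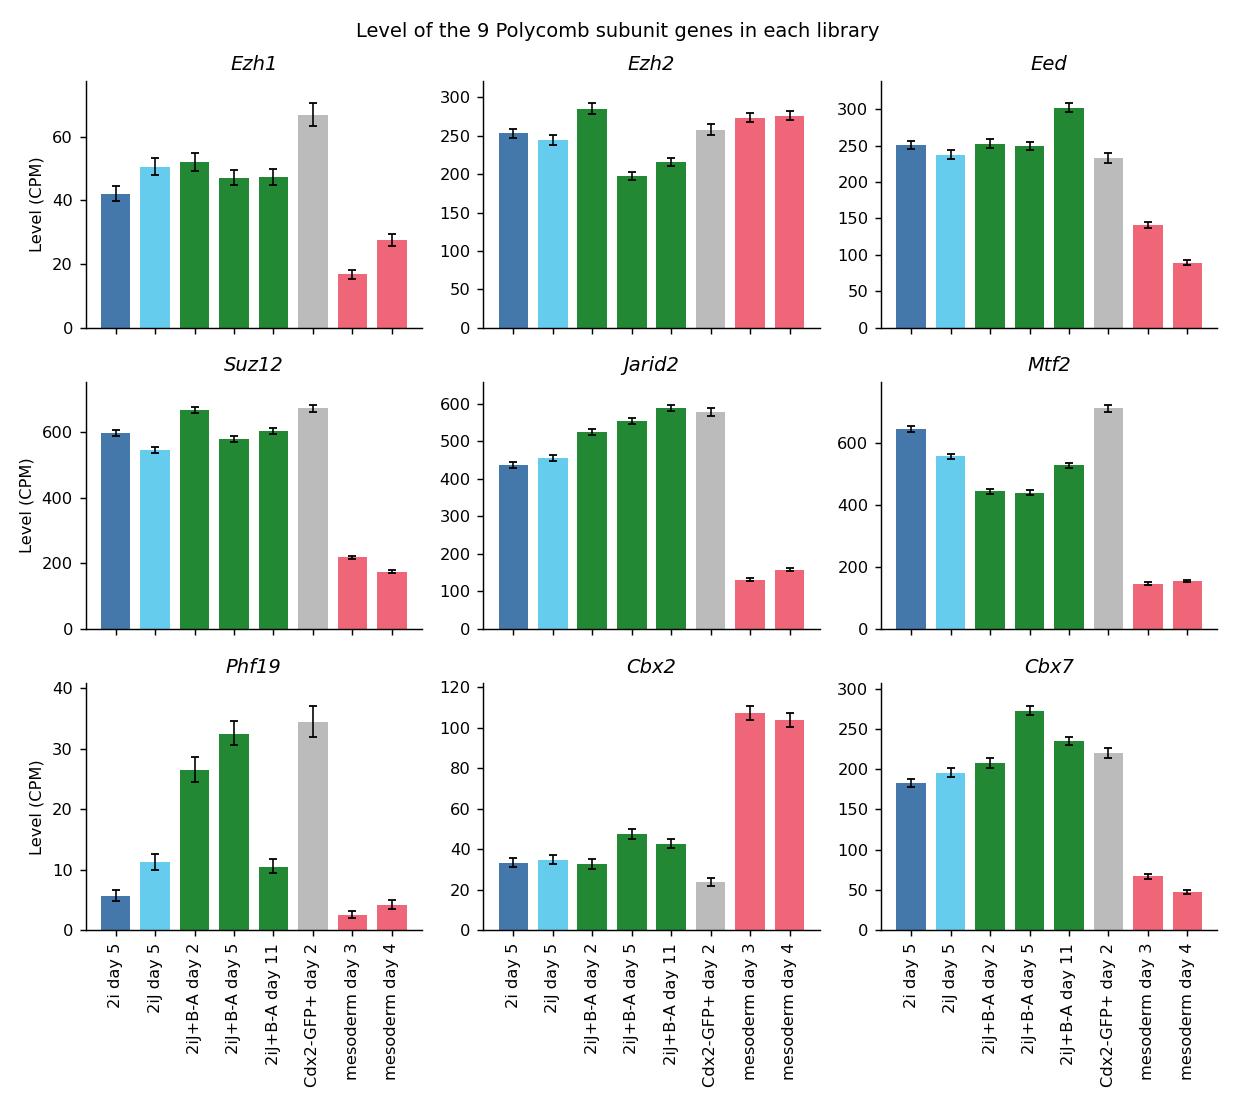
Level of each of the 9 Polycomb subunit genes in each library, in CPM, on axes that start at 0. Error bars are 95% Wilson binomial intervals and cover counting error only. Bars of the mesoderm progenitors lie below those of the 5 unsorted stem cell libraries for 7 genes, above them for Cbx2 and among them for Ezh2.

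Most of these genes were lower in mesoderm progenitors than in stem cells, and an exchange of one paralog for another was seen between Cbx7 and Cbx2. Cbx2 rose, Ezh2 was not called different, and the other 7 genes fell. This held against 2iJ+B-A and against all unsorted stem cells, where the log2 fold change sets mesoderm progenitors against the mean of 2i, 2iJ and 2iJ+B-A. Those 2 comparisons share the mesoderm progenitor and 2iJ+B-A libraries. Among all genes tested with edgeR's quasi-likelihood test at an adjusted p-value under 0.05, 15.5% were lower and 11.5% higher against 2iJ+B-A, and 16.4% were lower and 15.7% higher against unsorted stem cells. The median log2 fold change of the 9 genes was -1.63 and -1.61 in these comparisons, beside -0.03 and 0.01 over all genes tested. Both mesoderm libraries were below all 5 unsorted stem cell libraries for 7 of the 9 genes and for 25.7% of all genes tested, and above them for 1 of the 9 and for 22.9% of all genes. In bulk RNA, fewer cells that express a gene and less RNA of it per cell cannot be told apart.

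**Figure D2:**
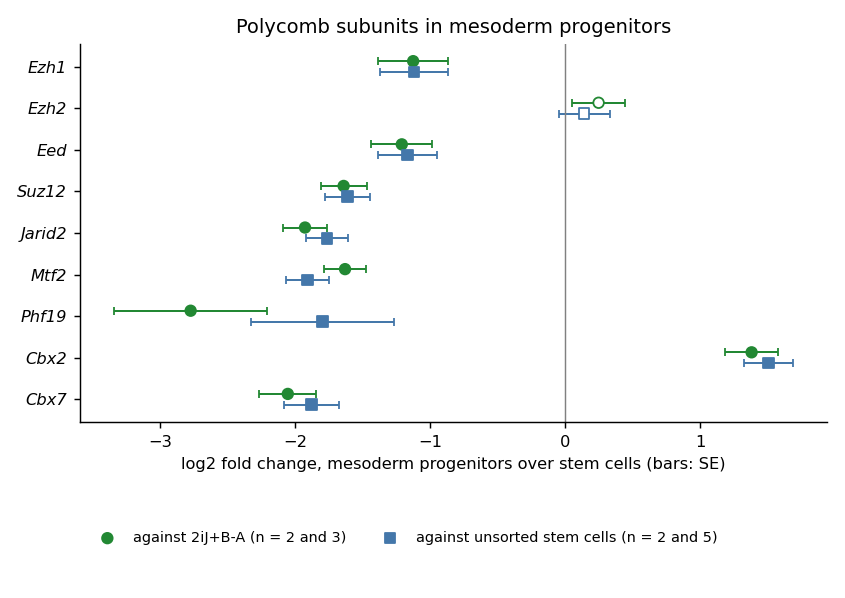
Log2 fold change of each gene in mesoderm progenitors (n = 2) against 2iJ+B-A (circles, n = 3) and against unsorted stem cells (squares, n = 5), with standard errors as bars. Filled points passed an edgeR adjusted p-value of 0.05. Only Cbx2 lies to the right of 0 among filled points, and both points of Ezh2 are open.

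Of the enzymes of PRC2, Ezh1 fell and Ezh2 was not called. Ezh2 (ENSMUSG00000029687) lies on chromosome 6 at 47480273 to 47545340, and Ezh1 (ENSMUSG00000006920) on chromosome 11 at 101052429 to 101087777, both on the minus strand of NCBIM37. Their promoters are shown because the levels of these paralogs are compared next. The sequences are those of RefSeq for GRCm38.p6, a later build than that of the counts, and run from 250 bases before to 50 bases after the annotated start, 5′ to 3′ on the gene's strand. Capitals mark matches to an E2F motif (TTTGGCGC or TTTCGCGC) or to CCAAT, searched on both strands. The Ezh2 window is chr6:47594981-47595280 and the Ezh1 window is chr11:101226414-101226713, both on the minus strand.
Ezh2 promoter: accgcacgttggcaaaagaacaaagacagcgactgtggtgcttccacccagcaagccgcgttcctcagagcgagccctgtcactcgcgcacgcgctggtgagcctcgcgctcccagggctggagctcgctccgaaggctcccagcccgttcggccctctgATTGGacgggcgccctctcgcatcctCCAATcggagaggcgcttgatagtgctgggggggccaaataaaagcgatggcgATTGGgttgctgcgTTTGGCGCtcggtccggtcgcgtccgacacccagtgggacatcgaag
Ezh1 promoter: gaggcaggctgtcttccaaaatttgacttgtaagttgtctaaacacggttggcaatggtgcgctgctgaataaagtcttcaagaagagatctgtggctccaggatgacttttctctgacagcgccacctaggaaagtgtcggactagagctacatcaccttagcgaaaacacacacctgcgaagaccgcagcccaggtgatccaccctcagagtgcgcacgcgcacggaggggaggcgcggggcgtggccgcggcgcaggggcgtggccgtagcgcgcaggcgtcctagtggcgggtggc
The Ezh2 window had 1 E2F match, which begins at base 254 of the window, and 3 CCAAT matches, which begin at bases 161, 187 and 240. The Ezh1 window had neither. Of 32851 RefSeq promoter windows of this length, 0.81% hold the E2F motif and 37.41% hold CCAAT. The motifs were chosen after the sequences had been read, so these shares do not measure how unusual the matches are. The part of the motifs in the levels of either gene was not tested. E2F factors are known to drive genes of the cell cycle. The windows held 31 and 23 CpG dinucleotides for Ezh2 and Ezh1, and the median over all windows was 7.

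Ezh2 stood at 273 and 276 CPM in mesoderm progenitors on days 3 and 4, at 253 in 2i and 244 in 2iJ, at 285, 197 and 216 on days 2, 5 and 11 of 2iJ+B-A, and at 258 in the sorted cells. The mesoderm values lie inside the range of the stem cells, whose highest and lowest values both came from 2iJ+B-A. The log2 fold change was 0.25 ± 0.20 (SE, edgeR adjusted p = 0.392) against 2iJ+B-A and 0.14 ± 0.19 (SE, adjusted p = 0.603) against unsorted stem cells. Genes of proliferation were set beside Ezh2. The sum of 8 such genes, among them Mki67 and Pcna, was 3272 and 3227 CPM in mesoderm progenitors and 3189 to 3800 CPM in unsorted stem cells, so these ranges overlapped too. In the sorted cells the sum was lower, at 1831 CPM, while Ezh2 at 258 CPM was inside the range of the unsorted stem cells. Of these 8 genes, Mki67, a protein of dividing cells, rose (log2 fold change 0.97, edgeR adjusted p = 0.0182) and 0 fell against 2iJ+B-A. Against unsorted stem cells Mki67 rose (0.86) and Ccnb1, a mitotic cyclin, fell (-0.51, edgeR adjusted p = 0.0454).

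Ezh1 stood at 16.8 and 27.5 CPM in mesoderm progenitors, at 42.1 in 2i and 50.6 in 2iJ, at 52.1, 47.1 and 47.3 on days 2, 5 and 11 of 2iJ+B-A, and at 66.7 in the sorted cells. All stem cell values were above both mesoderm values, which differ from each other. The log2 fold change was -1.13 ± 0.26 (SE, edgeR adjusted p = 0.0245) against 2iJ+B-A and -1.12 ± 0.25 (SE, adjusted p = 0.0194) against unsorted stem cells. This call was lost when some libraries were left out. Against 2iJ+B-A the edgeR adjusted p was 0.0515 without the day 3 mesoderm library, and 0.0664, 0.0758 and 0.0681 without day 2, 5 or 11 of 2iJ+B-A. Against unsorted stem cells it was 0.0503 without day 5 of 2iJ+B-A.

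The share of Ezh1 in the 2 enzymes was then taken from CPM per kilobase of exon, a scale that allows for gene length. The length is the union of all annotated exons, so the order of different genes on this scale depends on the annotation. It was 4.86% and 7.66% in mesoderm progenitors, between 12.18% and 16.57% in unsorted stem cells, and 17.72% in the sorted cells. Ezh2 was the larger part in every library. The log2 ratio of Ezh1 to Ezh2 was -3.94 ± 0.49 (SD, n = 2) in mesoderm progenitors and -2.58 ± 0.21 (SD, n = 5) in unsorted stem cells, a difference of -1.36. An exact permutation test over libraries gave a two-sided p = 0.0952, the smallest that 2 against 5 libraries allow, and 0.143 after adjustment over the 3 ratios tested.

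Both core partners of the enzymes fell. Suz12 (ENSMUSG00000017548; chromosome 11, 79806608 to 79847625, plus strand), which holds the complex together, had 218 and 175 CPM in mesoderm progenitors. It had 597 CPM in 2i, 544 in 2iJ, 667, 579 and 604 in 2iJ+B-A, and 672 in the sorted cells. Every stem cell value was more than double either mesoderm value, and the log2 fold change was -1.64 ± 0.17 (SE, edgeR adjusted p = 0.00276) against 2iJ+B-A. Eed (ENSMUSG00000030619; chromosome 7, 97103166 to 97129493, minus strand), which reads methylated lysine 27 and activates the enzyme, stood at 140.4 and 89.6 CPM in mesoderm progenitors. It had 251 CPM in 2i, 238 in 2iJ, 253, 249 and 302 in 2iJ+B-A, and 233 in the sorted cells. The log2 fold change of Eed was -1.21 ± 0.23 (SE, edgeR adjusted p = 0.0128) against 2iJ+B-A, and the mesoderm values stood below all the others.

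The levels of the enzymes were next set against those of their partners. These ratios were chosen after the values were seen and have no test. The sum of Ezh1 and Ezh2 per kilobase was 0.326 to 0.42 of Suz12 in unsorted stem cells and 0.373 in the sorted cells. It was 1.051 and 1.367 of Suz12 in mesoderm progenitors, so the order on this scale was turned around. Against Eed the ratio was 0.303 to 0.465 in unsorted stem cells, and 0.733 and 1.195 in mesoderm progenitors.

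**Figure D3:**
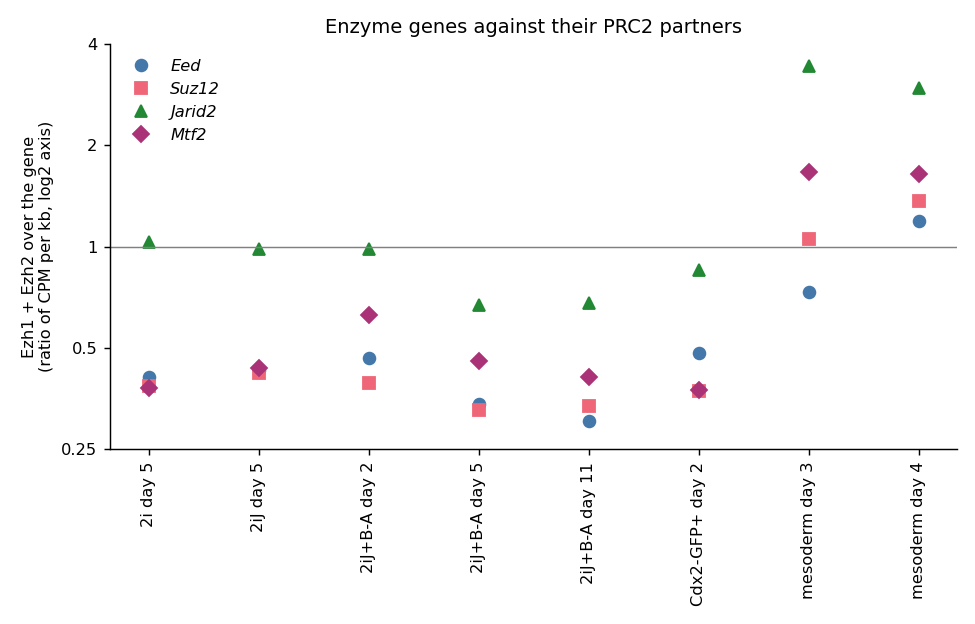
Ratio of the summed level of Ezh1 and Ezh2 to that of Eed, Suz12, Jarid2 or Mtf2 in each library, in CPM per kilobase of exon on both sides, on a log2 axis. The grey line marks equal levels. For each of the 4 genes the 2 mesoderm progenitor libraries lie above all stem cell libraries.

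All 3 accessory members, which between them cover both forms of PRC2, fell. Jarid2 (ENSMUSG00000038518; chromosome 13, 44824843 to 45017012, plus strand), which helps to bring PRC2 to its targets, had 131 and 158 CPM in mesoderm progenitors. It had 438 CPM in 2i, 455 in 2iJ, 525, 553 and 589 on days 2, 5 and 11 of 2iJ+B-A, and 578 in the sorted cells. The lowest stem cell value was thus far above both mesoderm values, with a log2 fold change of -1.93 ± 0.16 (SE, edgeR adjusted p = 0.00167) against 2iJ+B-A. Mtf2 (ENSMUSG00000029267; chromosome 5, 108494693 to 108538023, plus strand), a Polycomb-like protein that binds DNA rich in CpG, had 147 and 155 CPM in mesoderm progenitors. It had 645 CPM in 2i, 557 in 2iJ, 444, 440.2 and 528 in 2iJ+B-A, and 712 in the sorted cells. Within stem cells it was lower in each 2iJ+B-A library than in 2i or 2iJ. Its log2 fold change in mesoderm progenitors was -1.63 ± 0.16 (SE, edgeR adjusted p = 0.00234) against 2iJ+B-A and -1.91 ± 0.16 (SE, adjusted p = 0.0013) against unsorted stem cells.

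Phf19 (ENSMUSG00000026873; chromosome 2, 34749277 to 34769546, minus strand), another Polycomb-like protein, was the least abundant member and the most variable in stem cells. It had 2.51 and 4.17 CPM in mesoderm progenitors, 5.65 in 2i, 11.2 in 2iJ, 26.5, 32.5 and 10.5 on days 2, 5 and 11 of 2iJ+B-A, and 34.4 in the sorted cells. Its highest unsorted stem cell value was 5.76 times the lowest, whereas this ratio was 1.226 to 1.496 for the other 8 genes. The summed level of 6 trophectoderm markers was 67.7 CPM in 2i, 103 in 2iJ, 384, 848 and 399 on days 2, 5 and 11 of 2iJ+B-A, and 2254 in the sorted cells, 5 of the 6 being above 1 CPM in each. It was 484 and 787 CPM in mesoderm progenitors, where Phf19 was lowest. Most of this came from Krt8 (376 and 213 CPM on days 3 and 4) and Hand1 (42.1 and 540 CPM). Cdx2 (40.2 and 17.3 CPM), Gata3 (11.1 and 12.4), Tcfap2c (14.6 and 4.39) and Elf5 (0.0 and 0.065) gave the rest. Krt8 also gave 1731 CPM of the sum in the sorted cells. The part of these markers in the level of Phf19 was not tested. All stem cell values of Phf19 were above the mesoderm values, of which that on day 4 was close to 2i. The log2 fold change was -2.78 ± 0.57 (SE, edgeR adjusted p = 0.0171) against 2iJ+B-A and -1.80 ± 0.53 (SE, adjusted p = 0.0441) against unsorted stem cells. Against 2iJ+B-A the edgeR adjusted p was 0.0519 without day 3 of the mesoderm progenitors, and 0.0512 and 0.0575 without day 2 or 5 of 2iJ+B-A. Against unsorted stem cells it was 0.148 and 0.071 without day 3 or day 4 of the mesoderm progenitors, and 0.0833 and 0.083 without day 2 or 5 of 2iJ+B-A.

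Phf1, the other Polycomb-like protein, is no member and was not called. It had 12.5 and 15.6 CPM in mesoderm progenitors and 9.86 to 15.8 CPM in unsorted stem cells, ranges that overlap, with a log2 fold change of 0.15 ± 0.30 (SE, edgeR adjusted p = 0.749) against 2iJ+B-A and 0.31 ± 0.29 (SE, adjusted p = 0.447) against unsorted stem cells.

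The balance of the forms was compared, for the members only, as the log2 ratio of Mtf2 plus Phf19 to Jarid2 per kilobase. It was 0.98 ± 0.13 (SD, n = 2) in mesoderm progenitors and 0.96 ± 0.35 (SD, n = 5) in unsorted stem cells. The difference of 0.02 was smaller than the spread of either group (exact permutation test, two-sided p = 0.857, also 0.857 after adjustment over the 3 ratios). Within unsorted stem cells the ratio was 1.46 in 2i, 1.21 in 2iJ and 0.66 to 0.76 in 2iJ+B-A. The sorted cells, also grown in 2iJ+B-A, had 1.26, between the values of 2i and 2iJ. For these genes the unsorted libraries of different media were further apart than the means of the cell types. The part of the medium in this was not tested. The ratio leaves out Phf1, Aebp2 and E130012A19Rik. Of the summed level per kilobase of all these genes, E130012A19Rik made up 25.4% in 2iJ and 26.36% in 2i. It made up 43.49% to 47.01% in unsorted 2iJ+B-A, 22.85% in the sorted cells and 23.09% to 40.48% in mesoderm progenitors. Aebp2 made up 6.83% to 8.96% in unsorted stem cells and 12.21% to 13.14% in mesoderm progenitors. Phf1 made up 1.31% to 1.74% and 5.18% to 7.73%, in the same order.

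Among the readers of the mark in PRC1, Cbx7 fell and Cbx2 rose. Cbx7 (ENSMUSG00000053411) lies on chromosome 15 at 79746237 to 79801549 of NCBIM37, minus strand. Its RefSeq promoter window, shown for comparison with those of the Ezh genes, is chr15:79932597-79932896 of GRCm38.p6, minus strand, with the same motifs in capitals.
Cbx7 promoter: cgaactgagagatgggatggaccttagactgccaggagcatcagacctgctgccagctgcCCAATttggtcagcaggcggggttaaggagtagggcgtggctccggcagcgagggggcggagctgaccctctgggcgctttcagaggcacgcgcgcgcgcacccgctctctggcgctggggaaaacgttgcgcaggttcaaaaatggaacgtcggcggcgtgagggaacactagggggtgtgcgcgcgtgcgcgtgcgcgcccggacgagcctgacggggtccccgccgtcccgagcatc
This window held 33 CpG dinucleotides, 1 CCAAT match, which begins at base 61, and no E2F match. RefSeq windows were matched for 8 of the 9 genes, all but Cbx2, in 10 entries because Jarid2 and Mtf2 have more than 1 start. CCAAT was in 7 of the 10 entries, the E2F motif in 1, and TATAAA, the core of the TATA box, in 1, whereas 13.62% of all windows hold TATAAA. No 2 matches overlapped, and the motifs were chosen after the sequences had been read.

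Cbx7 had 66.9 and 46.9 CPM in mesoderm progenitors, 183 in 2i, 196 in 2iJ, 208, 273 and 235 on days 2, 5 and 11 of 2iJ+B-A, and 219.9 in the sorted cells. Its stem cell values were all well above those of mesoderm progenitors, with a log2 fold change of -2.06 ± 0.21 (SE, edgeR adjusted p = 0.00269) against 2iJ+B-A and -1.88 ± 0.20 (SE, adjusted p = 0.00244) against unsorted stem cells. Cbx2 (ENSMUSG00000025577; chromosome 11, 118884276 to 118892584, plus strand), which can compact chromatin, had 107 and 104 CPM in mesoderm progenitors. It had 33.4 CPM in 2i, 34.9 in 2iJ, 32.6, 47.4 and 42.6 in 2iJ+B-A, and 23.6 in the sorted cells. It was the one member whose mesoderm values lay above all the others, and its log2 fold change was 1.38 ± 0.20 (SE, edgeR adjusted p = 0.00607) against 2iJ+B-A and 1.51 ± 0.18 (SE, adjusted p = 0.0033) against unsorted stem cells.

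Per kilobase, Cbx7 was 6.145 to 7.16 times Cbx2 in unsorted stem cells and 10.457 times in the sorted cells, and 0.702 and 0.508 times Cbx2 in mesoderm progenitors on days 3 and 4. The paralogs thus changed places. The log2 ratio was 2.69 ± 0.09 (SD, n = 5) in unsorted stem cells, and -0.74 ± 0.33 (SD, n = 2) in mesoderm progenitors. The difference of -3.43 is a 10.8-fold change of the ratio and exceeds the spread of both groups. The exact permutation test gave a two-sided p = 0.0952, which is the smallest possible here, and 0.143 after adjustment over the 3 ratios.

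Cbx6 and Cbx8, further Cbx proteins of canonical PRC1, were set beside the pair. Of the summed level of Cbx2, Cbx6, Cbx7 and Cbx8 per kilobase, Cbx7 made up 65.77% to 71.26% in unsorted stem cells and 77.36% in the sorted cells, but 29.97% and 25.26% in mesoderm progenitors. Cbx2 made up 9.61% to 11.17%, 7.4%, and 42.7% and 49.72%, in the same order. Cbx6 stayed at 12.45% to 25.12% over all 8 libraries, while Cbx8 never exceeded 5.7%. Neither Cbx6 nor Cbx8 was called by edgeR in a mesoderm comparison, with adjusted p-values of 0.463 and 0.513 against 2iJ+B-A and 0.189 and 0.479 against unsorted stem cells. Without day 3 of the mesoderm progenitors, Cbx6 had an edgeR adjusted p of 0.0491 against unsorted stem cells.

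**Figure D4:**
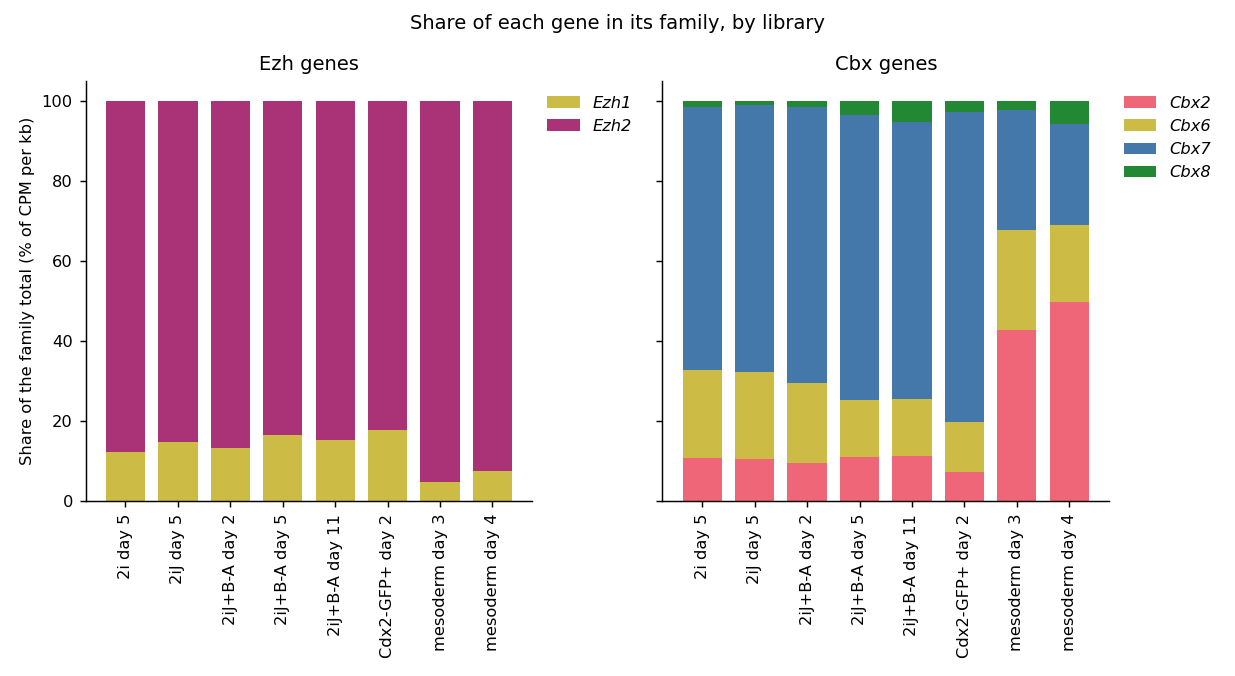
Share of each gene in the summed level of the family members plotted, in each library, in percent of CPM per kilobase of exon, for Ezh1 and Ezh2 (left) and for 4 Cbx genes (right). Cbx7 takes 65.77% to 71.26% in the unsorted stem cells and Cbx2 42.7% to 49.72% in the mesoderm progenitors.

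Ordered by mean level per kilobase, the unsorted stem cells had Suz12 (121 ± 9.10, SD, n = 5), Eed (117 ± 11.2) and Mtf2 (99.3 ± 16.2) at the top. Cbx7 (57.7 ± 9.498), Jarid2 (52.7 ± 6.61) and Ezh2 (38.6 ± 5.48) followed, and Cbx2 (8.97 ± 1.54), Ezh1 (6.43 ± 0.51) and Phf19 (3.43 ± 2.30) came last. The ranges over libraries of Suz12 and Eed, of Eed and Mtf2, and of Ezh1 and Phf19 overlapped, and their order differed between libraries. Those of Cbx7 and Jarid2 and of Jarid2 and Ezh2 overlapped too. Within every unsorted stem cell library, though, Cbx7 was above Jarid2 and Jarid2 above Ezh2. Cbx7 and Jarid2 were close on day 2 of 2iJ+B-A (54.8 and 54.0). In mesoderm progenitors Eed (51.8 ± 16.2, SD, n = 2), Ezh2 (44.3 ± 0.31) and Suz12 (39.7 ± 6.23) were at the top with overlapping ranges for Eed and the other two. Mtf2 (28.6 ± 1.03) and Cbx2 (24.8 ± 0.55) came next, and Cbx7 (15.0 ± 3.73) stood beside Jarid2 (14.9 ± 2.00).

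Within the stem cells, no difference in these genes passed the test. Between 2iJ+B-A and 2iJ, 0 of the 9 genes passed edgeR's adjusted p of 0.05, as did 0.0% of all 16961 genes, and 0 of the 9 had an unadjusted p under 0.05. Over all genes, 1290 had an unadjusted p under 0.05 and the Wald test of DESeq2 called 305, of which 0 were members. Log2 fold changes of the members ran from -0.31 ± 0.19 (SE) for Mtf2 to 0.98 ± 0.68 (SE) for Phf19. The reference is 1 library, so these values limit a change only as far as their standard errors go.

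Between 2iJ and 2i, with 1 library on each side and no test, 0 of the 9 genes were 2-fold apart, beside 10.1% of all genes. Phf19 came nearest, at 1.99 times its 2i level, and the next largest difference was in Ezh1, at 1.2 times. Between day 11 and day 2 of 2iJ+B-A, also without replicates, Phf19 alone was past 2-fold, at 0.397 of its day 2 level, beside 20.1% of all genes. Ezh2 on day 11 was at 0.758 of its day 2 level, and Cbx2 at 1.31 times.

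Between the mesoderm libraries, 0 of the 9 genes were 2-fold apart, beside 25.8% of all genes, although these libraries differ by a day and by IWP-2. Phf19 and Ezh1 were higher on day 4, at 1.66 and 1.64 times their day 3 level. Eed and Cbx7 were lower, at 0.638 and 0.701 of it. Ezh2 and Cbx2 were within 1.01 and 0.969 times their day 3 levels, with overlapping counting intervals for both genes, while the pluripotency markers dropped from 896 to 73.8 CPM in sum. The widest counting interval over the 8 libraries reached 22.2% of the value on either side for Phf19, 9.07% for Cbx2, 8.55% for Ezh1 and at most 5.14% for the other genes.

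In the sorted Cdx2-GFP-positive cells, 7 members lay beyond both mesoderm values on the side of the stem cells, as did Cbx2, and Ezh2 at 258 CPM lay below them. Against 2iJ+B-A, 0 of the 9 genes passed edgeR's adjusted p of 0.05, beside 5.42% of all genes. Unadjusted, 2 of the 9 had a p under 0.05, and DESeq2 called 1, Mtf2 (log2 fold change 0.65, adjusted p = 0.0364). In edgeR Mtf2 had a log2 fold change of 0.65 ± 0.18 (SE, adjusted p = 0.0872) and Cbx2 one of -0.74 ± 0.26 (SE, adjusted p = 0.141). These signs are opposite to those of mesoderm progenitors, and their difference from that comparison was not tested. Line, sorting and the 29.7% of unmapped read pairs differ together in this 1 library. Its summed level of the 8 proliferation genes was 1831 CPM, below the 3189 to 3800 CPM of the unsorted stem cells, and the part of this in the values of Mtf2 and Cbx2 was not tested.

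The other Polycomb genes did not fall as a group. A list of 31 further subunits and antagonists was counted, all of them tested. Against 2iJ+B-A, 6 were higher, 5 lower and 20 not called, with a median log2 fold change of -0.19, and against unsorted stem cells 9 were higher, 7 lower and 15 not called, with a median of -0.08. Over all genes tested, 11.5% were higher and 15.5% lower in the first comparison, and 15.7% and 16.4% in the second. Called in both comparisons and under each alternative tried were Rbbp7, Phc2 and Yaf2, which rose, and Aebp2 and E130012A19Rik, which fell.

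Of the PRC2 genes in this list, Rbbp7, a histone-binding protein that other chromatin complexes also use, had 1955 and 3057 CPM in mesoderm progenitors and 316 to 516 CPM in unsorted stem cells. The stem cell range is well below, and the log2 fold change was 2.67 ± 0.21 (SE, edgeR adjusted p = 0.00126) against unsorted stem cells. Its paralog Rbbp4 was not called (-0.08 ± 0.14, SE, adjusted p = 0.694). Aebp2, which accompanies Jarid2 in PRC2, had 106 and 95.4 CPM in mesoderm progenitors and 140.3 to 284 CPM in unsorted stem cells (-0.88, edgeR adjusted p = 0.00681). E130012A19Rik, the older symbol of Epop, a subunit found with Mtf2, had 93.5 and 44.5 CPM in mesoderm progenitors and 139 to 402 CPM in unsorted stem cells (-1.58, edgeR adjusted p = 0.0128). For both genes the 3 unsorted 2iJ+B-A libraries had the highest values. The sorted cells, also grown in 2iJ+B-A, had 157 CPM of Aebp2 and 156 CPM of E130012A19Rik, below each of these 3 libraries.

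Of the PRC1 genes, Phc2, a Polyhomeotic protein of canonical PRC1, had 159 and 116 CPM in mesoderm progenitors and 21.3 to 38.1 CPM in unsorted stem cells (log2 fold change 2.396 ± 0.27, SE, edgeR adjusted p = 0.00274). Yaf2, a paralog of Rybp in variant PRC1, had 34.4 and 34.6 CPM in mesoderm progenitors and 4.83 to 7.54 CPM in unsorted stem cells (2.57 ± 0.24, SE, edgeR adjusted p = 0.00182). Pcgf5, which defines a form of variant PRC1, had 9.13 and 9.72 CPM in mesoderm progenitors and 12.5 to 36.1 CPM in unsorted stem cells. It fell against 2iJ+B-A (-1.75 ± 0.23, SE, edgeR adjusted p = 0.00485), which held under each alternative, and against unsorted stem cells (-1.05 ± 0.21, SE, edgeR adjusted p = 0.0139, but 0.0514 without day 5 of 2iJ+B-A). L3mbtl2, a subunit of another variant PRC1, had 105 and 74.2 CPM in mesoderm progenitors and 133 to 236 CPM in unsorted stem cells. It fell against unsorted stem cells under each alternative (-1.17 ± 0.19, SE, edgeR adjusted p = 0.00732) and against 2iJ+B-A (-0.76 ± 0.19, SE, edgeR adjusted p = 0.0327). The latter call was lost without day 4 of the mesoderm progenitors (0.126) or day 5 or 11 of 2iJ+B-A (0.12 and 0.102, edgeR adjusted p).

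The ubiquitin ligase Rnf2 was not called (-0.31, edgeR adjusted p = 0.203), and its paralog Ring1 rose against unsorted stem cells (0.93, edgeR adjusted p = 0.0247) but was not called against 2iJ+B-A (0.54, edgeR adjusted p = 0.14). Ring1 was not called against unsorted stem cells without day 4 of the mesoderm progenitors (0.0881) or day 5 of 2iJ+B-A (0.0611), or with unsorted stem cells as 1 group (0.0549), all edgeR adjusted p-values. Of the demethylases of lysine 27, Kdm6a and Kdm6b, 0 were called in either comparison by edgeR with all libraries and the filter on low counts, with adjusted p-values of 0.0559 to 0.139. Kdm6a had an unadjusted p of 0.0238 and Kdm6b one of 0.032 against unsorted stem cells, where DESeq2 called both. It also called Kdm6b against 2iJ+B-A. In edgeR, Kdm6b was called in both comparisons without day 3 of the mesoderm progenitors, against 2iJ+B-A without the filter, and against unsorted stem cells taken as 1 group, where Kdm6a was called too.

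**Figure D5:**
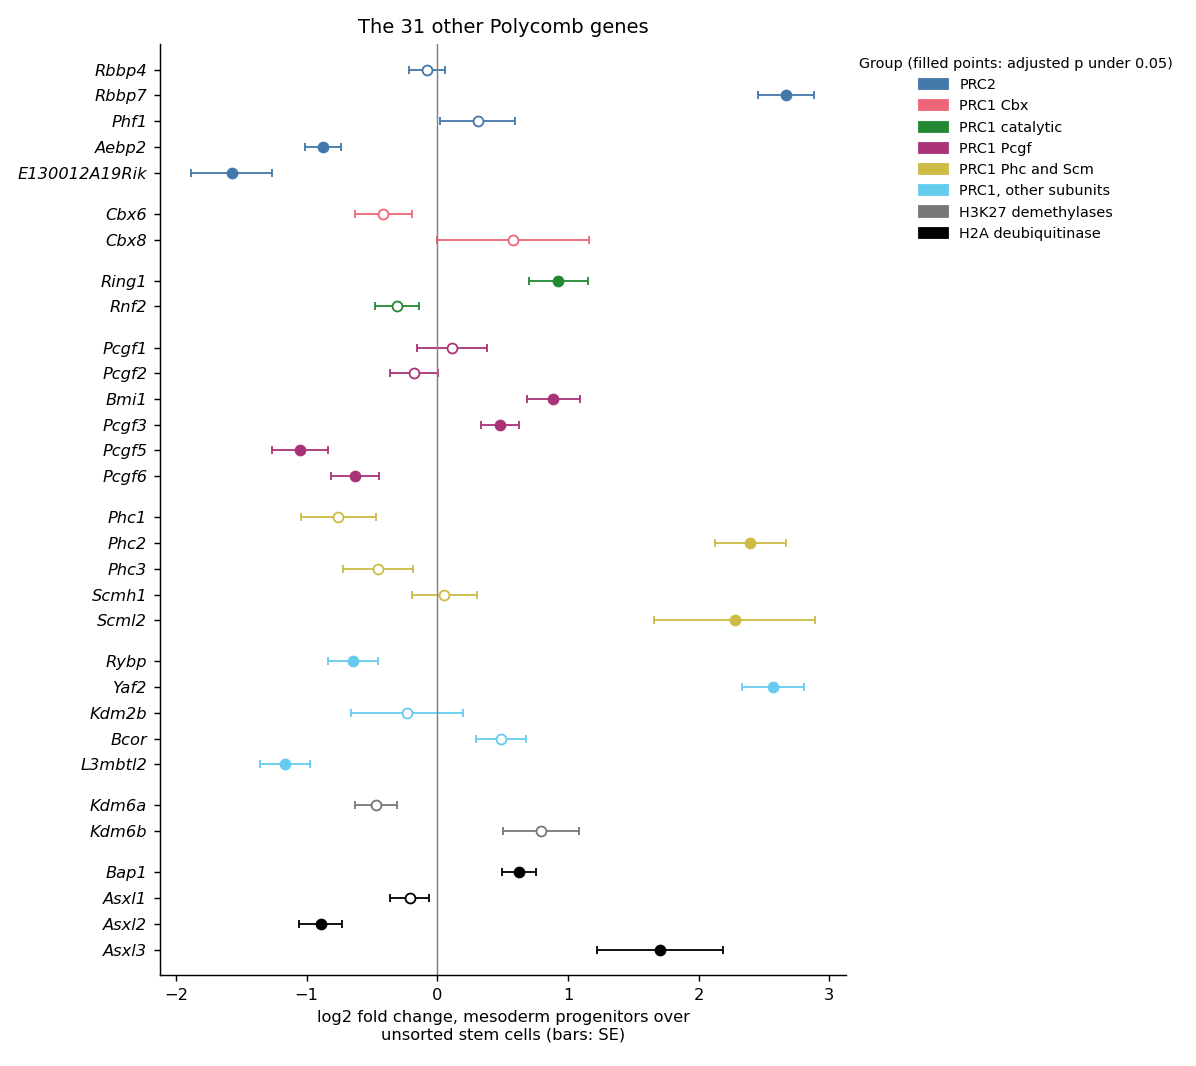
Log2 fold change of the 31 other Polycomb genes in mesoderm progenitors (n = 2) against unsorted stem cells (n = 5), with standard errors as bars and colours for groups of subunits. Filled points passed an edgeR adjusted p-value of 0.05, 9 of them to the right of 0 and 7 to the left.

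The genes whose levels were most like those of the paralogs were named from the correlation of log2 CPM over the 8 libraries among 9271 protein-coding genes. This is a description over libraries that fall into a stem cell and a mesoderm group, which many genes separate. For Cbx2 the nearest were Cdh2 (r = 0.993), Lpar2 (0.9927) and Stim2 (0.992), and 137 genes had an r over 0.95. For Cbx7 they were Syce1 (0.9944), Ttll6 (0.9931) and Ssr2 (0.9923), and 207 genes passed 0.95. For Ezh1 they were Mfge8 (0.9917), Syde2 (0.9898) and Stag3 (0.9872), with 33 genes past 0.95. For Ezh2 they were Cct4 (0.9384), Mrps33 (0.9376) and Gstcd (0.9131), and 0 genes reached 0.95. Cdh2, an adhesion protein of mesenchymal cells, had 175 and 127 CPM in mesoderm progenitors and 3.79 to 9.37 CPM in unsorted stem cells.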

How the data were processed

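Poly-A RNA of 8 libraries was prepared with a directional kit and sequenced as read pairs. The authors trimmed the reads and aligned them to NCBIM37 with STAR 2.4.2a, and the deposited files hold raw counts, in read pairs for each gene, without regard to strand and for either strand. Reverse-strand counts were used, as the kit requires, and 5.03% to 6.47% of strand-assigned counts lay on the other strand. Names, positions and exon lengths came from the GENCODE annotation of the same build, which named 37205 of 37620 genes. Multimapping, ambiguous, unmapped and exon-free pairs were left out of library sizes and took 19.9% to 54.5% of pairs. The annotation lists genes on the opposite strand that overlap Ezh2, Suz12, Jarid2, Mtf2 and Phf19.

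CPM is reverse-strand gene counts scaled to a library total of 1000000, and CPM per kilobase divides it by the union of exons. All libraries were fitted in edgeR 4.0.16 (R 4.3.3) with a coefficient for each of 5 groups (2i and 2iJ with 1 library each), TMM scaling, a minimum of 10 counts in 2 or more libraries, the quasi-likelihood test and Benjamini-Hochberg adjustment over all genes (threshold 0.05). The fit had 3 residual degrees of freedom and a common biological coefficient of variation of 0.363. Ratios were compared with an exact permutation test, two-sided, written in Python 3.11.15. Days of a group served as its replicates, and the labels do not state separate cultures, so p-values measure only the spread between these libraries. Alternatives were DESeq2 1.42.0 size factors and Wald test, no filter, unstranded counts, other groupings and leaving out libraries. Single libraries were left out from mesoderm progenitors, 2iJ+B-A and sorted cells, but not from 2i or 2iJ. The count fit was tested on simulated data. A batch adjustment between days that the study applied is not in these counts.

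The genes named were all 9 members, genes from the lists of other Polycomb and proliferation genes, which were counted whole, and the 3 genes most alike in pattern to each Ezh and Cbx paralog. Cdh2 was given values after they were seen, as were the balances with Ezh1 plus Ezh2. Members, lists and markers were chosen with earlier results of these data known. Sox1 and Dab2 were left out of the marker lists because the annotation has no single ID for them, and 1 gene of the Polycomb list is not reported here.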

Additional observations from a re-analysis of the deposited data

How the results depend on the processing

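No paired analysis was possible because the labels give days and no replicate numbers shared between groups. In the mesoderm comparisons, 92 of 99 member values under alternatives kept direction and side of the threshold against 2iJ+B-A and 94 of 99 against unsorted stem cells. The 7 and 5 others, all of Ezh1 and Phf19 with 1 library left out, lost significance. Members called stayed between 6 and 8 in both. Genes called over the whole table ranged from 2019 to 4538 against 2iJ+B-A and from 3584 to 5230 against unsorted stem cells when a library of the groups compared was left out, with the fewest without day 5 of 2iJ+B-A, and were 2666 against 2iJ+B-A without day 11. The full sets were 4584 and 5437. For the sorted cells (919) they ranged from 37 to 2052, at 91, 37 and 117 without day 2, 5 or 11 of 2iJ+B-A and 1987 and 2052 without day 3 or 4 of the mesoderm progenitors, and were 1390 without a filter on low counts and 2697 with DESeq2, which called 1 member. For 2iJ+B-A against 2iJ, 0 genes were called in edgeR, 305 with DESeq2 and 150 with 2i and 2iJ pooled. The following values of the members changed sign. The difference in the log2 ratio of Mtf2 plus Phf19 to Jarid2 was -0.0291 with the sorted library among the stem cells, and -0.0731 to 0.1135 with a library left out. Ezh1 had a log2 fold change of 0.0057 against pooled 2i and 2iJ, and Cbx7 in the sorted cells, with a library left out, one of -0.1433 to 0.0225, above 0 only without day 5 of 2iJ+B-A. The cause of these changes was not tested. The Cbx7 to Cbx2 difference was -3.66 to -3.20 and that of Ezh1 to Ezh2 -1.71 to -1.01 with a library left out. Depth limits Phf19 most. The mesoderm tests are limited by 2 libraries in that group, and the others by a group of 1 library.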

Other observations

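Other paralog pairs of the Polycomb complexes also differed in composition. They were picked after their values had been seen, and no test was run. Among the Polyhomeotic genes per kilobase of exon, Phc2 made up 6.2% to 17.86% in unsorted stem cells and 41.95% to 43.86% in mesoderm progenitors. It also made up 37.18% in the sorted cells, a share below both mesoderm values but closer to them than to the unsorted stem cells. The level of Phc2 there was 57.9 CPM, beside 21.3 to 38.1 in unsorted stem cells and 159 and 116 in mesoderm progenitors. Phc1 had 65.0 CPM in the sorted cells, below the 148 and 112 CPM of mesoderm progenitors and the 115 to 244 CPM of unsorted stem cells. Yaf2 took 9.0% to 13.16% of the sum of Rybp and Yaf2 in unsorted stem cells and 10.54% in the sorted cells, and 49.64% to 52.0% in mesoderm progenitors. Rbbp7 took 58.79% to 71.87% of the sum of Rbbp4 and Rbbp7 in unsorted stem cells, 82.56% in the sorted cells and 90.36% to 93.5% in mesoderm progenitors.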
